A study of Mus musculus with 3 samples.

Results

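Distal intergenic Ser5 peaks were defined here as peaks of phosphorylated RNA polymerase II that lay far from protein-coding genes and were found both in untreated macrophages and after lipopolysaccharide. A peak of the untreated library was taken when at least 1 bp of it was also in an LPS peak, when it lay outside protein-coding genes and the 10 kb past their 3′ ends, and when its edge was over 2 kb from any coding transcription start site (TSS) of the GENCODE M1 annotation on the mm9 assembly, on chromosomes 1 to 19 and X. Of 53467 untreated peaks on these chromosomes, 2078 met the rule. They were 46.6% (95% Wilson interval 45.2 to 48.1) of the 4458 untreated peaks in distal position. The members were selected on measured values, since the peaks were called from the tags compared below, and their tags in the 2 libraries are a description.

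The data are ChIP-Seq, which sequences the DNA pulled down by an antibody from cross-linked chromatin, in bone marrow-derived macrophages (BMDM), which are primary cells grown out of marrow, here from female mice of the strain Fvb (Fvb/Hsd in the study's methods). A Ser5 library came from cells without treatment and another from cells that received LPS, a cell wall component of Gram-negative bacteria that activates macrophages, at 10 ng/ml for 2 h. The sample labels give LPS alone for it, whereas a label in the study's figures names LPS with γIFN, and the labels are followed here. Both used Abcam antibody ab5131 against the polymerase tail phosphorylated at serine 5, and the other library held input DNA of untreated cells, chromatin sequenced with no antibody. There was 1 library per condition, so no test was made, and the 95% intervals given with values cover counting error only. As each library is of many cells, fewer cells with Ser5 at a region and less Ser5 per cell cannot be told apart. No genetic change is given for any of the cells, the ages of the mice and any pooling of mice are not given in the sources used here, and the only input came from untreated cells.

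Chromosomes 1 to 19 and X held 7616771 tags (aligned reads) of the untreated Ser5 library, 6249819 of the LPS library and 7533308 of the input. The ratio of LPS to untreated is the ratio of tags after each was divided by its library's total, and the interval beside it is exact and conditional on the sum of tags. Regions are called higher or lower after LPS when the ratio was at least 2 times up or down and both Ser5 libraries together held at least 10 tags. Densities are in tags per kb of region per 1000000 tags of the library, written TPM per kb, where TPM stands for tags and not transcripts. When the libraries were instead brought to the same number of tags outside any peak, every ratio moved up by 0.11 on the log2 scale. Of the 9 macrophage markers looked up, 8 were found in the annotation, and 7 of these had over 2 times the input density of Ser5 in each library. The same held for 1 of 5 T cell genes (Lck) in both libraries, for 0 of 4 B cell and 0 of 4 fibroblast genes in either, for 1 of 4 neutrophil genes (Camp) after LPS and for 1 of 4 erythroid genes (Klf1) without treatment.

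RNA polymerase II is phosphorylated at serine 5 of its tail repeats by the kinase of TFIIH as it begins transcription, so the mark is richest near start sites and is carried into transcribed DNA. Away from coding genes the polymerase transcribes genes of small and long non-coding RNAs, precursors of microRNAs, and enhancers, DNA elements that bind transcription factors and raise the activity of a gene at a distance. In macrophages the factor PU.1, of the ETS family, together with C/EBP and AP-1 proteins is known to occupy enhancers in resting cells, and LPS activates NF-κB and interferon regulatory factors.

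The sequences that follow were read from the mm9 genome at the middle of members described in the results, with 300 bases each, 5′ to 3′. They give examples of factor motifs in members that differed after LPS. The last of them shows a small RNA gene under a peak with very dense Ser5. The first 4 windows come from members with more tags after LPS, though those at Nfkbia and Fcgr1 were below the 2-times limit over the untreated peak. The next pair come from members with fewer. These 6 windows were picked by hand and each holds a match, whereas other members of large or small ratio held none. In these 6 windows, all on the plus strand, the capitals mark a motif match on either strand. The motifs are AP-1 upstream of Irg1, C/EBP upstream of Ccl2, an interferon-stimulated response element (ISRE) past the 3′ end of Nfkbia, adjoining ETS and ISRE matches upstream of Fcgr1, κB upstream of Ctsd, and a GC box followed by a TATA box upstream of Tbc1d22a.
Irg1 upstream member (chr14:103411817-103412116, mm9, plus strand): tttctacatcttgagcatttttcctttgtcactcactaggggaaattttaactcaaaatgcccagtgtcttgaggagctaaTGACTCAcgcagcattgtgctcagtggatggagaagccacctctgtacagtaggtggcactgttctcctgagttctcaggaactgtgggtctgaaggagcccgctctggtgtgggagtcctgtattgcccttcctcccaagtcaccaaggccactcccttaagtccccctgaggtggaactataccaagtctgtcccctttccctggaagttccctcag
Ccl2 upstream member (chr11:81820160-81820459, mm9, plus strand): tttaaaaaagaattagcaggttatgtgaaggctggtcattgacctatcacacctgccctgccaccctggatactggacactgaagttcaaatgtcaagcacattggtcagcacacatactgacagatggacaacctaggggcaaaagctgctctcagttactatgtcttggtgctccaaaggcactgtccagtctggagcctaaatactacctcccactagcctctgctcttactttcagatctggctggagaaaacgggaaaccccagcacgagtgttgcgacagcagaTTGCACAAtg
Nfkbia 3′ member (chr12:56566422-56566721, mm9, plus strand): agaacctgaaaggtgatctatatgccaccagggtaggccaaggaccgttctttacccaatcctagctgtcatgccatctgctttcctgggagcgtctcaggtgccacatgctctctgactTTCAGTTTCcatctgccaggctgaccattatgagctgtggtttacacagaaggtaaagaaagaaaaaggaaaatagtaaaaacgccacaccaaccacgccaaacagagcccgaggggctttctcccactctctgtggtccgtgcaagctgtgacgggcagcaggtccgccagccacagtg
Fcgr1 upstream member (chr3:96104711-96105010, mm9, plus strand): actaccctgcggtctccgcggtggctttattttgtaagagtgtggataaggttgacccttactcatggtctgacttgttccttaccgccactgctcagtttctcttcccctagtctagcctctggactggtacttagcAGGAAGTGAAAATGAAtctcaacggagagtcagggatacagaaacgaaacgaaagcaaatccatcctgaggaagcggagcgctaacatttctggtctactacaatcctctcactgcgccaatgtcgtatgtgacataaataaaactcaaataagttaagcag
Ctsd upstream member (chr7:149584580-149584879, mm9, plus strand): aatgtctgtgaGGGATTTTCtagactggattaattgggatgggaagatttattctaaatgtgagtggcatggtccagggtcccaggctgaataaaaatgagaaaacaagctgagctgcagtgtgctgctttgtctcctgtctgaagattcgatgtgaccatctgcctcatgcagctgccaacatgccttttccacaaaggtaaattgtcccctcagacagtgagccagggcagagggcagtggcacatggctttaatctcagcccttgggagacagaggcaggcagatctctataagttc
Tbc1d22a upstream member (chr15:86033450-86033749, mm9, plus strand): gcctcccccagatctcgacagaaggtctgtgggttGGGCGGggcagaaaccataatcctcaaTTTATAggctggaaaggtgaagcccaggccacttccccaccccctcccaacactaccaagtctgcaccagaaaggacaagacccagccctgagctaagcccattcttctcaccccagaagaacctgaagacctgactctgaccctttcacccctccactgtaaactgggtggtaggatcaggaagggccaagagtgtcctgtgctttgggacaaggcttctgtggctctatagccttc
The next window, on the minus strand, holds the U11 gene of 134 bases, an RNA of the minor spliceosome, in capitals, with bases of its flanks on either side. It was chosen because this member had the densest Ser5 of all.
U11 member (chr4:131825958-131826257, mm9, minus strand): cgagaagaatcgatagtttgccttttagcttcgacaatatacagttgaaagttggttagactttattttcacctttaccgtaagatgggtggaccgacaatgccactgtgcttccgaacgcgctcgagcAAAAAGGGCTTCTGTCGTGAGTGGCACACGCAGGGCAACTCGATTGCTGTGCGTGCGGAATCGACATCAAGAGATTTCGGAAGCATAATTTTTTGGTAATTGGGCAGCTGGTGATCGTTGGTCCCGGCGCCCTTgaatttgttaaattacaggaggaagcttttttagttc
MicroRNA genes were among the non-coding genes covered. For the mature sequences below, credited to RefSeq, the capitals mark the seed, bases 2 to 8, which pairs with target RNAs. Those of miR-221 and miR-222 share the seed GCUACAU, whereas miR-322 and miR-503 differ in the last base of the seed. They were chosen after their values were seen, as they are the best known microRNAs whose hairpins lay inside members.
miR-221-3p: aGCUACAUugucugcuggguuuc
miR-222-3p: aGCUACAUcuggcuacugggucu
miR-146a-5p: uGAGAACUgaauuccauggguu
miR-142a-5p: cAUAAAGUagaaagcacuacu
miR-142a-3p: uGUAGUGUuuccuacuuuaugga
miR-322-5p: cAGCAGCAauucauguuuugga
miR-503-5p: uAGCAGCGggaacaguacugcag

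The members were short regions well above the input, which follows in part from the rule, since the peaks were called against this input. Their length had a median of 499.5 bp, with a range from 86 to 4724 bp. Per member the untreated library held between 4 and 1905 tags (median 40), the LPS library between 0 and 2218 (median 29) and the input between 0 and 58 (median 5). Summed over members, 168689 untreated, 125434 LPS and 13820 input tags were counted, which is 2.21%, 2.01% and 0.183% of the libraries' tags. Relative to the input, scaled to the same totals, the untreated library was 12.1 times higher (11.9 to 12.3) and the LPS library 10.9 times higher (10.7 to 11.1). When scaled to tags outside peaks these values were 23.0 and 22.4. In untreated cells 4 members had less than 2 times the input density, and 39 did after LPS.

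**Figure D1:**
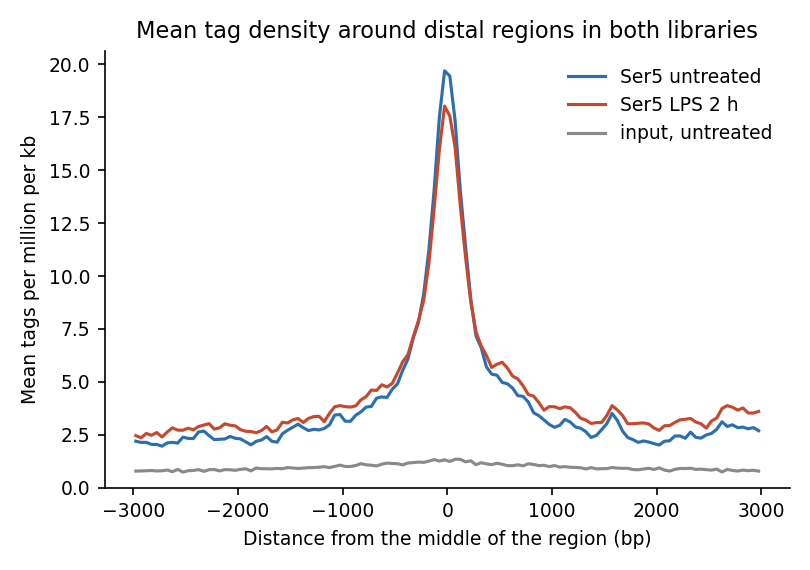
Mean tag density, in TPM per kb (tags per kb and 1000000 tags), of the untreated Ser5, LPS and input libraries in steps of 50 bp, plotted against the distance in bp from the middle of the 2078 distal members. The Ser5 curves peak at 19.7 and 18.0 near the middle and the input is at 1.32 there, and 1575 bp before the middle the LPS curve is the higher one (3.10 against 2.55).

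In the plot of mean density by distance, both Ser5 libraries were centred on the members. The untreated library reached 19.7 TPM per kb there, the LPS library 18.0 and the input 1.32. On the flanks the order of the Ser5 libraries was the opposite, with 2.47 untreated and 3.08 after LPS at 1425 bp past the middle. The members were taken from the peaks of the untreated library, which centres that curve by construction.

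Most members differed by less than 2 times between the libraries. Among the 2077 with at least 10 tags, 195 (9.39%) were higher after LPS and 374 (18.0%) were lower, and the other 1508 lay between. Counted over the overlapping LPS peaks instead, the balance was the other way, with 269 higher, 236 lower and a median ratio of 0.977 (0.948 to 1.01). The same rule called 5.94% of all untreated peaks higher and 37.3% lower, and of the untreated peaks of any position that overlapped an LPS peak, as the members do by rule, it called 10.3% higher and 11.6% lower. The members' median ratio was 0.848 (0.818 to 0.877). Members' ratios ran up to 7.24, and 300 members had an interval wholly above 1, 587 wholly below 1, and 1191 an interval that included 1. The median ratio of coding promoter peaks found in both libraries was 0.858 (0.851 to 0.865), whose interval lies inside that of the members, and of such gene body peaks it was 1.07 (1.06 to 1.09).

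**Figure D2:**
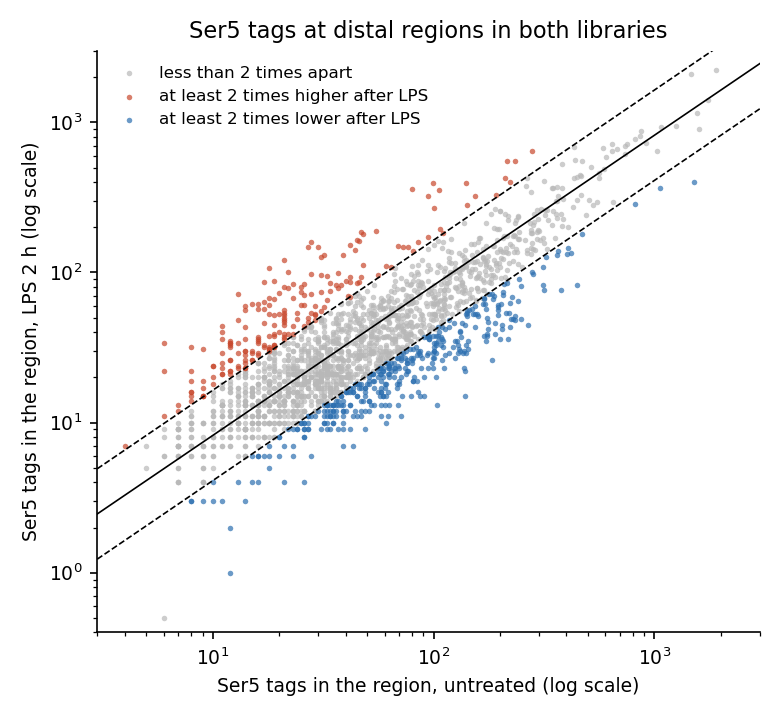
Ser5 tags of each of the 2078 distal members in the untreated library (horizontal, log scale) and the LPS library (vertical, log scale, 0 tags drawn at 0.5). The solid line is a ratio of 1 and the dashed lines are 2 times up and down, which separate the 195 higher and 374 lower members from the 1508 between.

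The extent of the peak in each library went with the direction. The peaks were called from these same tags, so the 2 are tied by construction. The higher members had a median length of 383 bp and lay in LPS peaks of median 1194 bp, whereas the lower members had a median length of 600.5 bp against LPS peaks of 410.5 bp. Of the 1026 members longer than the LPS peaks they overlapped, 2 were higher and 315 lower. Of the 1048 that were shorter, 193 were higher and 59 lower. When tags were counted over the untreated peak joined with its LPS peaks, 178 of the 195 higher and 328 of the 374 lower members kept their call.

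Values near the edges of the rule are given here once, as a description. The 50 members whose edge lay over 2000 and up to 2500 bp from a coding TSS had median tags of 45.5 and 37 and a median ratio of 0.801, and the 180 shared peaks just nearer than that limit, over 1500 and up to 2000 bp, had 33 and 24.5 tags and a ratio of 0.869. The 88 members just beyond 10 kb past a coding 3′ end, up to 12000 bp, had 33 and 22 tags and a ratio of 0.934, against 37, 27.5 and 0.939 for the 130 shared peaks between 8000 and 10000 bp. The deposited score of a peak, minus 10 times log10 of its p-value, started at 50. The 75 members with an untreated score under 55 had a median ratio of 1.44, and the 109 with an LPS score under 55 one of 0.574. The scores come from the same tags, so these ratios are tied to them by construction.

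Non-coding genes lay under 276 members (13.3%, 11.9 to 14.8). Over all untreated peaks the share was 5.57% (5.38 to 5.77), and it was 9.16% (8.07 to 10.4) over the 2380 distal peaks of the untreated library alone. The rule keeps members away from coding genes, which hold or adjoin many of the other peaks. Long intergenic non-coding RNA (lincRNA) genes were covered most often, with 98 genes and 167 members. Processed transcripts followed with 62 genes and 77 members, then pseudogenes with 14 and 21. The small RNA classes were 12 snRNA genes in 13 members, 11 miRNA genes in 10, 6 snoRNA genes in 6, and the telomerase RNA gene in 1.

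The 30 members over small RNA genes were dense in both libraries. Their median was 21.6 TPM per kb untreated and 22.6 after LPS, compared with 10.6 and 9.24 for all members. Their median ratio was 1.06, with 3 higher and 1 lower. The U11 member on chromosome 4 from 131825481 to 131826733, 4183 bp upstream of Taf12, a TFIID subunit gene, held 1591 untreated, 906 LPS and 19 input tags, with a ratio of 0.694 (0.639 to 0.753). With 1 tag per position and strand this ratio was 0.862, above the interval. The untreated density of the U11 member, 166.7 TPM per kb (158.6 to 175.1), was the highest of all members.

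The 13 members over snRNA genes, U11 included, had a median ratio of 1.08, with 1 higher and 0 lower. With all tags counted, the ones named here over other spliceosomal RNA genes had ratios nearer to 1 than the U11 member. The member over a pair of U4 genes on chromosome 5, 5469 bp upstream of Sirt4, held 1740 and 1406 tags against 26 in the input, and its ratio of 0.985 (0.917 to 1.06) had an interval that includes 1. With 1 tag per position and strand it was 1.11. U2 genes, whose RNA binds the branch point of introns, carried 861 and 810 tags in the member 6521 bp upstream of Arl4d, with 15 in the input (ratio 1.15, 1.04 to 1.26). The U2 member on chromosome 1 near Mreg, one of the members with a ratio nearest to 1, held 363 and 299 tags (ratio 1.00, 0.858 to 1.17). The other members with ratios nearest to 1 covered no non-coding gene. On chromosome 4, near Gm13011, one held 563 and 462 tags, and on chromosome 11, close to Mir146, another held 214 and 175. U5 members, given here after their values were seen, held 816 and 772, 366 and 324, and 125 and 107 tags. These genes belong to families of near-identical copies, which makes their own tags uncertain, and up to 44.2% of the sequences of 30 bases in a member over a U2 gene occurred more than once in the genome. The telomerase RNA gene, also outside the naming rule, held 219 tags untreated and 115 after LPS (ratio 0.640, 0.506 to 0.806).

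Malat1, an abundant nuclear non-coding RNA, was covered by 4 members, and the tags over its body and its 5′ end differed in ratio. The member at the 5′ end, on chromosome 19 from 5802517 to 5804937, held 1559 untreated and 1151 LPS tags (ratio 0.900, 0.833 to 0.972), but with 1 tag per position and strand its ratio was 1.07. Downstream of it on the minus strand, the member from 5799673 to 5802514 held 1063 and 363 tags (0.416, 0.368 to 0.469). The next held 195 and 61 tags (0.381, 0.281 to 0.511), and the one that reaches the 3′ end held 1509 and 401 (0.324, 0.289 to 0.362). The 3 intervals over the body lie below that at the 5′ end. The members with 195 and with 1509 untreated tags also overlap Gm20417, a processed transcript on the plus strand. The tags do not tell these overlapping genes apart.

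Long non-coding genes with many tags in both libraries included A430104N18Rik, the host transcript of Mir142. Its 5′ member, 4927 bp upstream of Bzrap1, held 917 and 732 tags (ratio 0.973, 0.882 to 1.07, and 1.14 with 1 tag per position and strand) against 6 in the input, and the member holding the Mir142 hairpin held 751 and 722 (1.17, 1.06 to 1.30). The nearest coding gene by TSS, Bzrap1, had 566 and 154 tags. The member at A230028O05Rik, whose nearest coding TSS is that of Tprg at 227566 bp, held 1257 and 945 tags (0.916, 0.841 to 0.998). The member at AI480526 upstream of Setd1b, 4372 bp long, held 1074 and 936 tags (1.06, 0.972 to 1.16). Gm17422, upstream of 6430527G18Rik, lay under the longest member, of 4724 bp, which held 819 and 285 tags (0.424, 0.369 to 0.486).

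Other long non-coding genes, chosen after their values were seen, went in either direction. The 5 members over 2310001H17Rik summed to 584 and 1165 tags (ratio 2.43, 2.20 to 2.69), with 4 of them higher and 1 lower. At 9330175E14Rik all 3 members were higher and summed to 170 and 340 tags (2.44, 2.02 to 2.95). Dleu2, a lincRNA whose gene hosts Mir16-1, was covered by 8 members that summed to 1340 and 1168 tags (1.06, 0.981 to 1.15), and the hairpin itself lay 3981 bp from the nearest of them. Over Xist and its antisense gene Tsix, which overlap, 2 members held 259 and 202 tags (0.951, 0.787 to 1.15). The tags carry no information on which of the overlapping genes was transcribed.

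Of 1005 RefSeq hairpins, placed on mm9 by exact match, 14 lay in 11 members. The locus of Mir221 and Mir222 on chromosome X, whose microRNAs act on cell cycle inhibitors, had more members than the surroundings of any other nearest coding gene. From 18719691 to 18815376 there were 31 members, of which 27 were higher. Together they held 1184 untreated, 3482 LPS and 131 input tags, a ratio of 3.58 (3.35 to 3.83). The first 28 members, from 18719691 to 18745552, had ratios between 1.92 and 6.17, and the last 3, beyond a gap of over 10 kb, had ratios of 0.102, 1.13 and 1.45, the first of these with 6 and 0 tags. Over the whole stretch of the first group, members and gaps alike, 1185 untreated and 4039 LPS tags were counted against 174 in the input (ratio 4.15, 3.89 to 4.44).

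Within this locus the densest member lay at the 5′ end of the lincRNA gene Gm14636, which runs on the minus strand towards the hairpins. It held 215 tags untreated and 549 after LPS (ratio 3.11, 2.65 to 3.66). The Mir221 member held 32 and 131 tags (4.99, 3.37 to 7.59) and the Mir222 member 21 and 56 (3.25, 1.94 to 5.65). The nearest coding gene, BC049702, held 0 tags in either Ser5 library, and its TSS lay at least 243388 bp away.

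At Mir146, which encodes miR-146a, a microRNA against Traf6 and Irak1 that is induced by NF-κB, tags were high in both libraries. The member with the hairpin, of 4439 bp on chromosome 11, held 643 and 721 tags with 36 in the input (ratio 1.37, 1.23 to 1.52). The 13 members of that region together held 2173 and 2412 tags (1.35, 1.28 to 1.43), 2 of them higher and 0 lower. Their nearest coding gene, Pttg1, had 251 and 188 tags. The Mir322 and Mir503 hairpins shared a member of 14 and 9 tags (0.783, 0.299 to 1.94), too few to place its ratio on either side of 1. Mir8120 lay under a lower member, of 199 and 36 tags (0.220, 0.150 to 0.316). The hairpins of Mir29a and Mir29b-1 lay in the span of 29 members between AB041803 and Klf14 but 6233 and 6596 bp from the nearest, and these members held 891 and 1021 tags in all (1.40, 1.28 to 1.53).

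**Figure D3:**
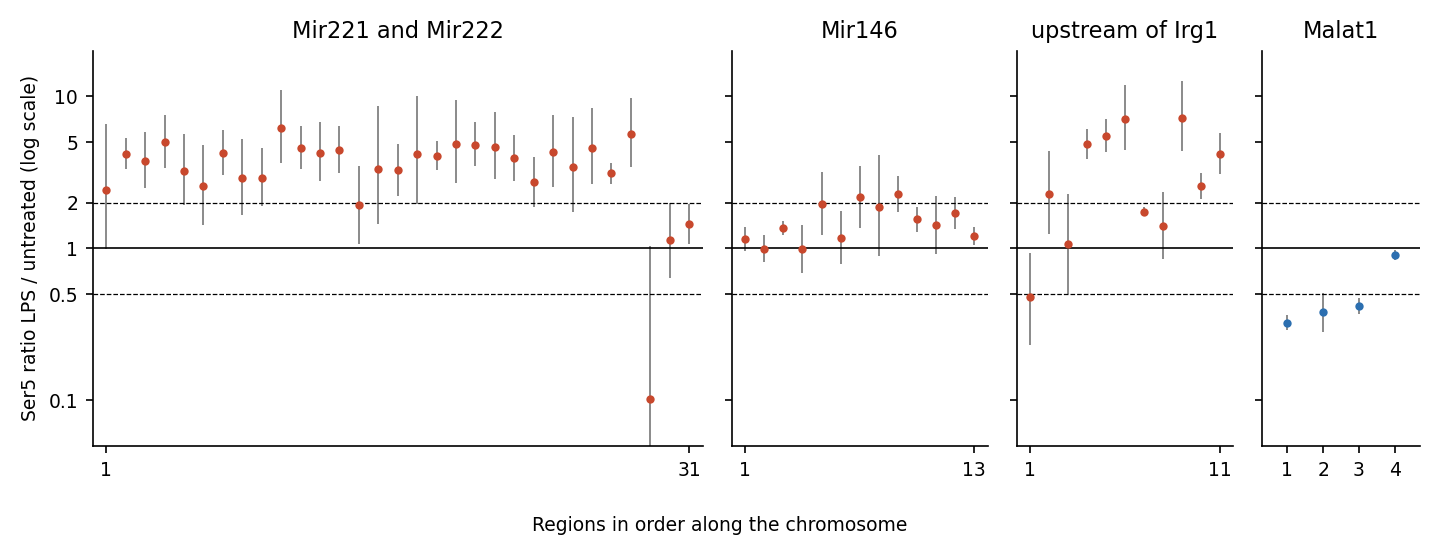
Ratio of LPS to untreated Ser5 (log scale, solid line at 1, dashed lines 2 times up and down) for each distal member in order along the chromosome, at Mir221 and Mir222 (31 members), Mir146 (13), upstream of Irg1 (11) and at Malat1 (4). Bars are 95% intervals for counting error, that of 1 member reaching 0 below the axis. The first 28 members at Mir221 and Mir222 have ratios of at least 1.92, and 3 of the 4 at Malat1 lie under 0.5.

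Most members lay upstream of a coding gene. The nearest coding TSS was downstream of the member for 1556 (74.9%, 73.0 to 76.7). Over all members its median distance from the middle of the member was 23236.5 bp. The rule leaves out 10 kb past 3′ ends but 2 kb on the upstream side, which raises this share by construction. There were 497 members within 10 kb, 1034 between 10 and 50 kb, 315 between 50 and 100 kb and 232 beyond. They shared 1164 nearest genes, of which 774 had 1 member and 70 had 5 or more, so members are not independent of each other. After merging members within 1000 bp, 1629 loci remained, 1334 of them of 1 member. Among members over 100 kb from a coding TSS, 55 of 231 with at least 10 tags (23.8%) were higher, and without the Mir221 and Mir222 locus it was 28 of 201 (13.9%).

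Members that were higher lay near genes that were higher more often than other members did. For 162 higher members, which lay at 106 genes, the nearest gene had at least 10 tags over its body. Of these members 79 (48.8%, 41.2 to 56.4) had a gene that was higher, while 12 had one that was lower. Members at the same gene share its ratio, which the Wilson intervals here do not allow for. Of 1408 members between the limits, 189 (13.4%, 11.7 to 15.3) had a higher and 113 (8.03%, 6.72 to 9.56) a lower gene. Of 349 lower members, 12 (3.44%, 1.98 to 5.91) had a higher and 68 (19.5%, 15.7 to 24.0) a lower gene. Of all 17386 coding genes with at least 10 tags, 5.82% were higher and 11.2% lower. As a description over 1919 members and 1085 genes, which share the same 2 libraries, the log2 ratios of member and gene had Pearson's r of 0.363 and Spearman's rho of 0.352. Member and gene lay on the same side of 1 for 61.8% of members.

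**Figure D4:**
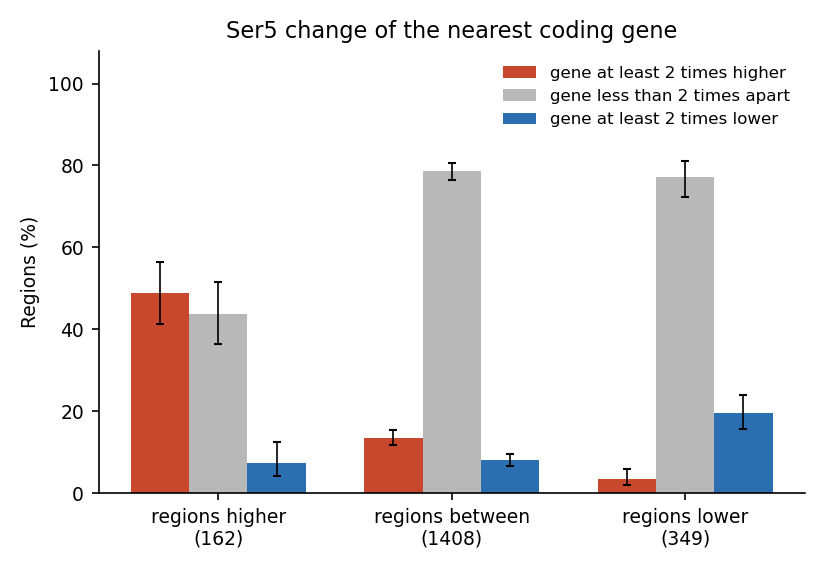
Share of distal members, in percent with 95% Wilson intervals, whose nearest coding gene was at least 2 times higher, less than 2 times apart or at least 2 times lower in Ser5 after LPS, for the 162 higher, 1408 between and 349 lower members. Higher genes stand beside 48.8% of the higher members, 13.4% of those between and 3.44% of the lower ones.

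The member with the largest ratio lay 34228 bp upstream of Irg1, which encodes the enzyme that makes itaconate. On chromosome 14 from 103411799 to 103412133, it held 18 untreated and 107 LPS tags with 4 in the input (ratio 7.24, 4.37 to 12.7), and it is the member whose AP-1 match is printed above. RefSeq has a coding gene, Kctd12, between the coding neighbours of this member, so which coding gene is nearest depends on the annotation. A second member, 67082 bp upstream and inside the annotated span of Kctd12, held 21 and 122 tags (7.08, 4.43 to 11.8). Over it and its LPS peak together the ratio was 2.10, as the joined region takes in a denser neighbour. Irg1 itself had 2146 untreated and 35958 LPS tags (20.4, 19.5 to 21.3). The 11 members upstream of it summed to 1986 and 3686 tags (2.26, 2.14 to 2.39), with 7 higher and 1 lower.

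In that group the member on chromosome 14 from 103379719 to 103382789, 64940 bp from Irg1, held 1460 and 2093 tags (ratio 1.75, 1.63 to 1.87). The annotation lists a lincRNA, Gm17446, and a Kctd12 pseudogene there, whereas RefSeq has Kctd12 as a coding gene between the same neighbours. For 1721 members both coding neighbours were found in RefSeq, and for 117 (6.80%) RefSeq has another coding gene between them.

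The other members of largest ratio were next to genes with different changes. The one 13605 bp upstream of Ccdc88b held 28 and 159 tags (6.92, 4.61 to 10.7), and the gene 228 and 486 (ratio 2.60). The one 35278 bp past the TSS of Pde4b, a cAMP phosphodiesterase gene, held 27 and 148 tags (6.68, 4.41 to 10.5), and the gene 708 and 3070 (5.28). By contrast, the member 151398 bp upstream of Cxcr4, a chemokine receptor gene, held 13 and 72 tags and 0 in the input (6.75, 3.71 to 13.3), while Cxcr4 went from 733 to 93 tags (0.155). The direction of a member and that of its nearest gene were thus opposite at Cxcr4.

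The members of smallest ratio, among those with at least 50 tags, held few tags after LPS. The one 11278 bp upstream of Tbc1d22a held 139 and 15 tags (0.132, 0.0717 to 0.225), and its window with a GC box and a TATA box is printed above. The one 105233 bp upstream of Trpm1 held 104 and 13 tags (0.152, 0.0785 to 0.272). On chromosome 18 a member at the 5′ end of the lincRNA gene 3010027C24Rik, 55069 bp upstream of Zfp516, held 184 and 26 tags (0.172, 0.110 to 0.261). Another on that chromosome, 280809 bp upstream of Rbbp8, held 71 and 11 (0.189, 0.0902 to 0.359), and the one 11123 bp upstream of Cnot8 held 139 and 22 (0.193, 0.117 to 0.304). Their nearest genes had ratios between 0.571 and 1.28, so none of the 5 was past the 2-times limit. Tags of the input at these 5 members numbered between 5 and 13. With the input subtracted the ratio was 0.0707 at Tbc1d22a and 0.109 at Zfp516, and over the LPS peak that at Rbbp8 was 0.285.

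Genes of 6 lists were looked up for members whose nearest TSS was theirs and lay within 100 kb. Of the 1846 members within 100 kb of a coding TSS, 140 (7.58%) were higher and 349 (18.9%) lower, with a median ratio of 0.826. Of 39 inflammatory cytokine and chemokine genes with at least 10 tags, 35 were higher and 0 lower, and Ccl2 and Ccl9 had members, 6 in all, with 3 higher and a median ratio of 2.70. The 5 upstream of Ccl2, the chemokine that draws monocytes, lay between 28764 and 31406 bp from its TSS and summed to 198 and 444 tags (2.73, 2.31 to 3.25). The nearest of them, with the C/EBP match printed above, held 30 and 147 tags (5.97, 4.01 to 9.16), the next 22 and 101 (5.60, 3.50 to 9.32), and one with more untreated tags 105 and 113 (1.31, 0.997 to 1.73). Counted together with their overlapping LPS peaks these ratios were 3.99, 2.32 and 2.32, the latter pair lying in 1 LPS peak. The gene had 1671 and 3067 tags (2.24, 2.11 to 2.38).

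The list of NF-κB, MAP kinase and Toll-like receptor signalling had 45 genes with at least 10 tags, of which 29 were higher and 0 lower. There were 21 members at 9 of them, with 4 higher, 1 lower and a median ratio of 1.39. At Nfkbia, the gene of the inhibitor IκBα, 4 members lay past the 3′ end, between 18759 and 27625 bp from the TSS. The densest, with the ISRE match printed above, held 201 and 258 tags (1.56, 1.30 to 1.89), and its neighbour 183 and 246 (1.64, 1.35 to 1.99), whereas Nfkbia had 1136 and 5765 (6.18, 5.80 to 6.60). Both members had a smaller ratio than the gene, with intervals apart. Counted together with the 1 LPS peak that both overlap, the ratio was 2.09 (1.85 to 2.36). Outside the naming rule, the 2 members nearest to Socs3, a feedback inhibitor of cytokine signalling, summed to 53 and 128 tags (2.94, 2.12 to 4.13). Upstream of Zc3h12a, an RNase gene against inflammatory mRNAs, a member held 147 and 95 tags (0.788, 0.602 to 1.03) while the gene had 700 and 1698 (2.96).

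Of 51 interferon response genes, 39 were higher and 1 lower, and 4 members lay at 3 of them, with 2 higher and 0 lower. The Slfn2 member held 14 and 28 tags (2.44, 1.24 to 5.01), and that 16825 bp upstream of Parp14 held 12 and 21 (2.13, 1.00 to 4.76). At Irf5, a factor downstream of Toll-like receptors, the member 3251 bp upstream held 58 and 24 tags with 22 in the input (0.504, 0.300 to 0.824). Its density after LPS was 3.45 TPM per kb and that of the input 2.63, with intervals that overlap. The ratio was 0.196 with the input subtracted and 0.771 over the LPS peak.

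The list of early response transcription factors had the most members, 55 at 20 genes, with 10 higher, 7 lower and a median ratio of 1.02. It also holds genes that are not transcription factors, such as Pim1, Mcl1 and Cdkn1a. The higher members lay at Pim1 (5), Klf6 (2), Mcl1 (1), Cdkn1a (1) and Atf3 (1). Of 47 genes with at least 10 tags, 11 were higher and 6 lower. The 5 members upstream of Pim1, a serine kinase gene, were all higher and summed to 408 and 1031 tags (3.08, 2.74 to 3.46), and Pim1 had 500 and 2023 (4.93, 4.47 to 5.45). The 2 densest of these held 211 and 428 tags (2.47, 2.09 to 2.93) and 140 and 394 (3.43, 2.82 to 4.19). Id2, a gene for an inhibitor of basic helix-loop-helix factors, had the opposite pattern, with 446 and 82 tags in the member 3658 bp upstream (0.224, 0.175 to 0.284). The gene Id2 had 356 and 212 tags (0.726, 0.609 to 0.863), while over its LPS peak alone the member had a ratio of 0.433. Klf10, also named after its values were seen, had 2 members, which summed to 210 and 56 tags (0.325, 0.238 to 0.438), and the gene 550 and 121 (0.268).

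Of 45 macrophage lineage and receptor genes, 8 were higher and 13 lower, and 21 members lay at 11 of them, with 3 higher, 4 lower and a median ratio of 1.28. The member 6681 bp upstream of Fcgr1, the high-affinity receptor for IgG, held 67 and 107 tags (1.95, 1.42 to 2.68), and it is the one with adjoining ETS and ISRE matches. Counted together with its LPS peak, this member had a ratio of 2.20 (1.69 to 2.87). The gene Fcgr1 had 589 and 380 (0.786). At Tyrobp, the gene of the adaptor DAP12, a member held 95 and 41 tags (0.526, 0.355 to 0.766), and at Fcgr4, another IgG receptor gene, 78 and 31 (0.484, 0.309 to 0.743). The Itgam member, outside the naming rule, held 47 and 11 (0.285, 0.133 to 0.558), and the gene, which encodes CD11b, 968 and 182 (0.229).

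Of 40 genes for lysosomal, lipid and iron handling, 5 were higher and 14 lower, and 21 members lay at 10 of them, with 1 higher, 4 lower and a median ratio of 0.855. The member 10786 bp upstream of Ctsd, the gene of the lysosomal protease cathepsin D, held 269 and 45 tags with 39 in the input (0.204, 0.145 to 0.280). This ratio was 0.0671 with the input subtracted and 0.331 over the LPS peak. Ctsd itself had 4459 and 580 tags (0.159, 0.145 to 0.173). Upstream of Fth1, the ferritin heavy chain gene, the denser member held 432 and 688 tags (1.94, 1.72 to 2.19) and the other 96 and 106 (1.35, 1.01 to 1.79). Fth1 had 4070 and 6216 (1.86, 1.79 to 1.94), and its interval overlaps that of the denser member.

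The member with the most tags was outside the naming rule. On chromosome 15 from 74760715 to 74764355, 22946 bp upstream of Ly6e, it held 1905 untreated, 2218 LPS and 42 input tags (1.42, 1.33 to 1.51).

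Base composition set the members between the other distal peaks and promoters. In the 300 bases at their middle, 359 members (17.3%, 15.7 to 18.96) had an observed to expected CpG ratio of at least 0.6, a level typical of CpG islands. It was 5.71% (4.85 to 6.72) of distal peaks of the untreated library alone, 57.4% (56.6 to 58.2) of coding promoter peaks found in both and 19.9% (19.6 to 20.3) of all untreated peaks. The CpG-rich members covered a non-coding gene in 27.02% of cases (22.7 to 31.8), compared with 10.4% (9.06 to 11.9) of the rest. They held a median of 17.3 untreated and 12.1 LPS TPM per kb. Of them 11 (3.06%) were higher and 67 (18.7%) lower, against 10.7% higher and 17.9% lower among the rest.

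Motifs were searched on both strands of the same windows. They were AGGAAGT for ETS factors, TGANTCA for AP-1, TTGCNNAA for C/EBP, GAAANNGAA for the ISRE, GGGANTTTC for part of a κB site, GGGCGG for the GC box and TATAAA for the TATA box. An ETS match stood in 20.5% of members (18.8 to 22.3) and 12.2% of all untreated peaks. AP-1 was found in 16.9% (15.3 to 18.6) against 9.64%, C/EBP in 15.3% (13.8 to 16.9) against 10.5%, and the ISRE in 11.7% (10.4 to 13.2) against 7.75%. The κB letters were in 51 members (2.45%, 1.87 to 3.21), against 1.05% of all untreated peaks and 1.05% of distal peaks of the untreated library alone. The latter had more ETS matches than the members, 29.0% (27.2 to 30.9), and fewer GC boxes, 12.7% (11.5 to 14.1) against 21.6% (19.8 to 23.4). In those distal peaks the intervals were 16.8 to 19.9% for AP-1, 13.6 to 16.5% for C/EBP and 10.3 to 12.9% for the ISRE. Each overlapped the interval of the members, so these motifs did not set the members apart from those distal peaks. A match is a description of the letters and does not show a bound factor. Each motif was counted by itself, and the letters of different motifs can overlap.

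**Figure D5:**
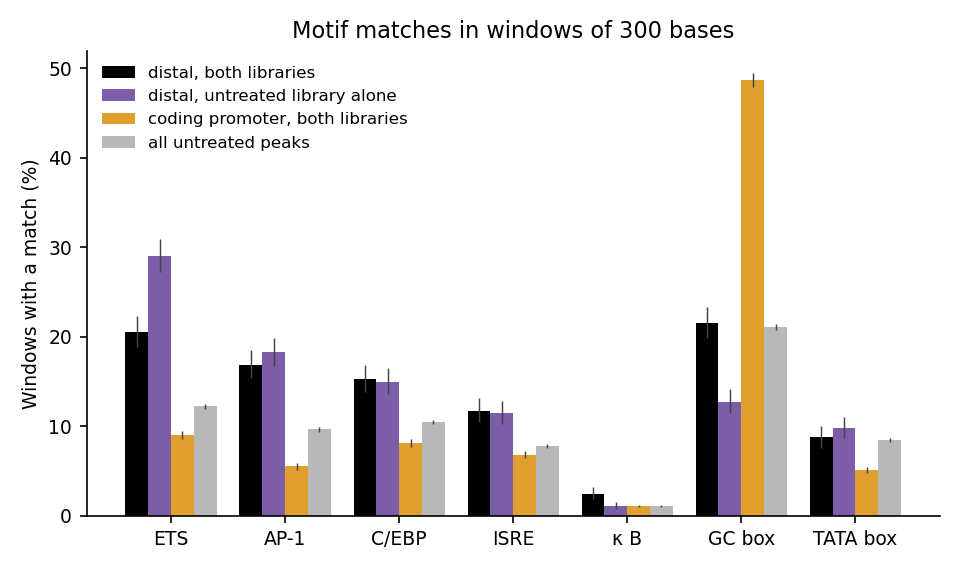
Share of windows of 300 bases, in percent with 95% Wilson intervals, that hold each of 7 motifs, in the 2078 distal members found in both libraries, the 2380 distal peaks of the untreated library alone, the 15321 coding promoter peaks found in both and all 53467 untreated peaks. ETS, AP-1, C/EBP and ISRE shares stand higher in both distal sets than in promoters, and the GC box reaches 48.7% in promoters against 21.6% in the distal members.

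Among the members themselves, the shares with a GC box and with a TATA box differed with the change in Ser5. A GC box was in 8.72% of the 195 higher members (5.51 to 13.5), 21.6% of those between (19.6 to 23.7) and 28.3% of the 374 lower ones (24.0 to 33.1). A TATA box was in 17.4% of the higher (12.8 to 23.4), 7.96% of those between (6.70 to 9.43) and 7.22% of the lower (5.01 to 10.3). Without the Mir221 and Mir222 locus, where 11 of 31 members held one, the share in the higher members was 14.3% (9.79 to 20.4). That interval overlaps the one of the lower members, though not the one of those between. For ETS, AP-1, C/EBP, ISRE and κB the intervals of higher and lower members overlapped. Repeated sequence was rare, as 1365 members held no sequence of 30 bases that occurs elsewhere in the genome and 2 had over 50% of such sequences.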

How the data were processed

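The samples were the untreated Ser5, LPS Ser5 and input libraries of BMDM, 1 each. The authors aligned reads to mm9 with Bowtie, keeping unique matches, called peaks per Ser5 library against the input with MACS, and deposited the aligned tags and the peak lists. The score of each deposited peak is minus 10*log10 of the MACS p-value, and tool versions are not given in the sources used here. Deposited tags were 45 (untreated), 30 (LPS) and 36 bases long (input), whereas the supplementary methods give the Ser5 lengths the other way round.

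Tags were counted by their 5′ ends, duplicates included, and scaled to all tags on chromosomes 1 to 19 and X. Intervals of 95% were exact Poisson (counts), exact conditional on the sum (ratios), Wilson (shares) and order-statistic (medians). For calls 0 tags were set to 0.5. Genes came from GENCODE M1, names of microRNAs and neighbouring genes from RefSeq (GRCm38.p6). Distances ran from the middle of a member to the nearest coding TSS.

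The members, gene lists, motifs and naming rule were chosen with earlier results of these data known. Named members were the 5 with the densest untreated Ser5, the 5 largest and 5 smallest ratios (each with at least 50 tags), the 10 with most tags over a non-coding gene, the 3 with most tags at each of 6 gene lists, the 3 longest and the 3 with ratios nearest to 1 (at least 200 tags). 1 of them is not reported here. The alternatives tried are given in the closing section. Of the genes looked up, Cxcl11, Cebpd, Spi1, Tfec and Pirb were not found under these symbols. Python 3.11.15, numpy 2.4.6, scipy 1.17.1, pandas 2.3.3, numba 0.67.0 and matplotlib 3.10.9 were used, and the scripts were tested on simulated data.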

Additional observations from a re-analysis of the deposited data

How the results depend on the processing

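With 1 library per condition, no spread between replicates, no test and no left-out replicate could be had, and depth limits single members: 1191 of 2078 ratios had an interval that included 1. No paired analysis was possible because each condition has 1 library and the result comes from no test. The median ratio of all members stayed below 1 under each alternative, but over the LPS peaks its interval reached 1.01 and the higher members outnumbered the lower. With peaks of p at most 1e-10 in both lists 1123 members were left. Within 1000 bp of a non-coding gene lay 16.3% of members. The median ratio was 0.913 when scaled to tags outside peaks, 0.914 over joined peaks, 0.977 over the LPS peaks and 0.806 for members with at least 50 tags. The lower members numbered 236 of 2078 (11.4%) over the LPS peaks, against 374 of 2077 (18.0%) in the main count. Among members with no repeated sequence of 30 bases they were 224 of 1364 (16.4%). The split of calls moved too: over the LPS peaks 269 were higher against the 236 lower, and under scaling outside peaks 237 higher against 304 lower. Over the input, the untreated library was 23.0 times higher when scaled outside peaks and 11.4 with 1 tag per position and strand, and the LPS library 22.4 and 10.5 times. With genes counted 1 kb around the TSS, 33.1% of the higher members had a higher nearest gene. Searched over whole peaks, the motif shares were 30.2% (ETS), 25.2% (AP-1), 25.6% (C/EBP), 21.0% (ISRE), 4.62% (κB), 30.7% (GC box) and 17.8% (TATA box), since longer sequences were searched. Of 258 alternative values of the named members, 228 stayed within their counting intervals, 30 moved outside them and 0 of the higher or lower calls changed direction. Ratios near 1 crossed it, as at the 5′ end of Malat1. Of 44 values of loci, 6 moved and 38 stayed. Leaving out the Mir221 and Mir222 locus, an alternative chosen after seeing the data, as were those for the loci, gave a median ratio of 0.838 with 168 higher and 374 lower.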
